A study of Mus musculus with 5 samples.

Results

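The gp130 cytokine pathway was followed through 10 genes: the cytokines Lif and Clcf1, the receptor chains Il6ra, Osmr, Lifr and Il6st, and the downstream genes Stat3, Socs3, Cebpb and Cebpd. They were found by gene symbol in the authors' deposited table, which held 51912 genes, of which 31651 had a read and 17420 had an adjusted p-value. Each symbol matched 1 row, and all 10 genes had an adjusted p-value. The table compared RNA sequencing libraries of C57BL/6 mice after a sham operation (2 libraries) with libraries after an ischemic stroke (3 libraries). The labels give no genetic alteration in either group, and the series concerns TRIM9, a brain-enriched ubiquitin ligase, in inflammation after stroke. Per the labels' protocols, a filament closed the middle cerebral artery for 30 minutes, mice were kept if cerebral blood flow dropped by at least 80%, and motor deficit was scored after 24 hours. The tissue, the time of sampling, and the sex and age of the mice were not stated in the labels. Nothing in the labels says that each library came from its own mouse, so the p-values measure the spread between these libraries, which may be partly technical.

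Cytokines of this family signal through a shared receptor chain, gp130, which is encoded by Il6st. Interleukin-6 first binds its own receptor, encoded by Il6ra, whereas leukemia inhibitory factor and oncostatin M pair gp130 with the chains encoded by Lifr and Osmr. The pair activates JAK kinases, which phosphorylate STAT3, and STAT3 then enters the nucleus and induces genes that include Socs3. SOCS3 protein binds gp130 and JAK and shuts the signal off, which makes Socs3 transcripts a common readout of the pathway. Cebpb and Cebpd encode C/EBP transcription factors of the acute phase response, and in the brain the pathway is known for its part in reactive astrocytes and in inflammation after injury.

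The table gives a mean over all libraries and no values per library, so whole reads were recovered from its mean, fold change and standard error, and all 10 genes were among the recovered. Reads divided by the authors' size factors are called normalized counts below. The size factors were 1.16, 1.13 and 1.12 in the stroke libraries, which are numbered in that order, and 0.945 and 0.734 in the sham libraries, which are called the deeper and the shallower. Means in the table summed to 2.65e+07 over all genes, which is the typical depth of a library in normalized counts. The libraries cannot be tied to the replicate numbers of the labels.

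By the Wald test in the authors' deposited table, 3 of the 10 genes rose after stroke at an adjusted p under 0.05 (Benjamini-Hochberg adjustment), and none fell. These were Cebpb, Cebpd and Socs3, the 2 C/EBP factors and the feedback inhibitor. Among all tested genes 135 of 17420 rose, which is 0.775%, and 137 fell. At an unadjusted p under 0.05, 5 of the 10 genes were higher, with Osmr and Stat3 joining the 3, against 4.84% of tested genes, and 0 were lower. In 6 of the 10 genes every stroke library lay above both sham libraries, against 11.7% of the 12193 tested genes with recovered reads. The 10 genes had a median log2 fold change of 1.15 and 9 were positive, beside a median of -0.02 over all tested genes. The 10 genes were chosen with earlier results of these data known, so these shares are no independent test. In RNA from a mixture of cells, more cells of a type and more RNA per cell cannot be told apart.

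**Figure D1:**
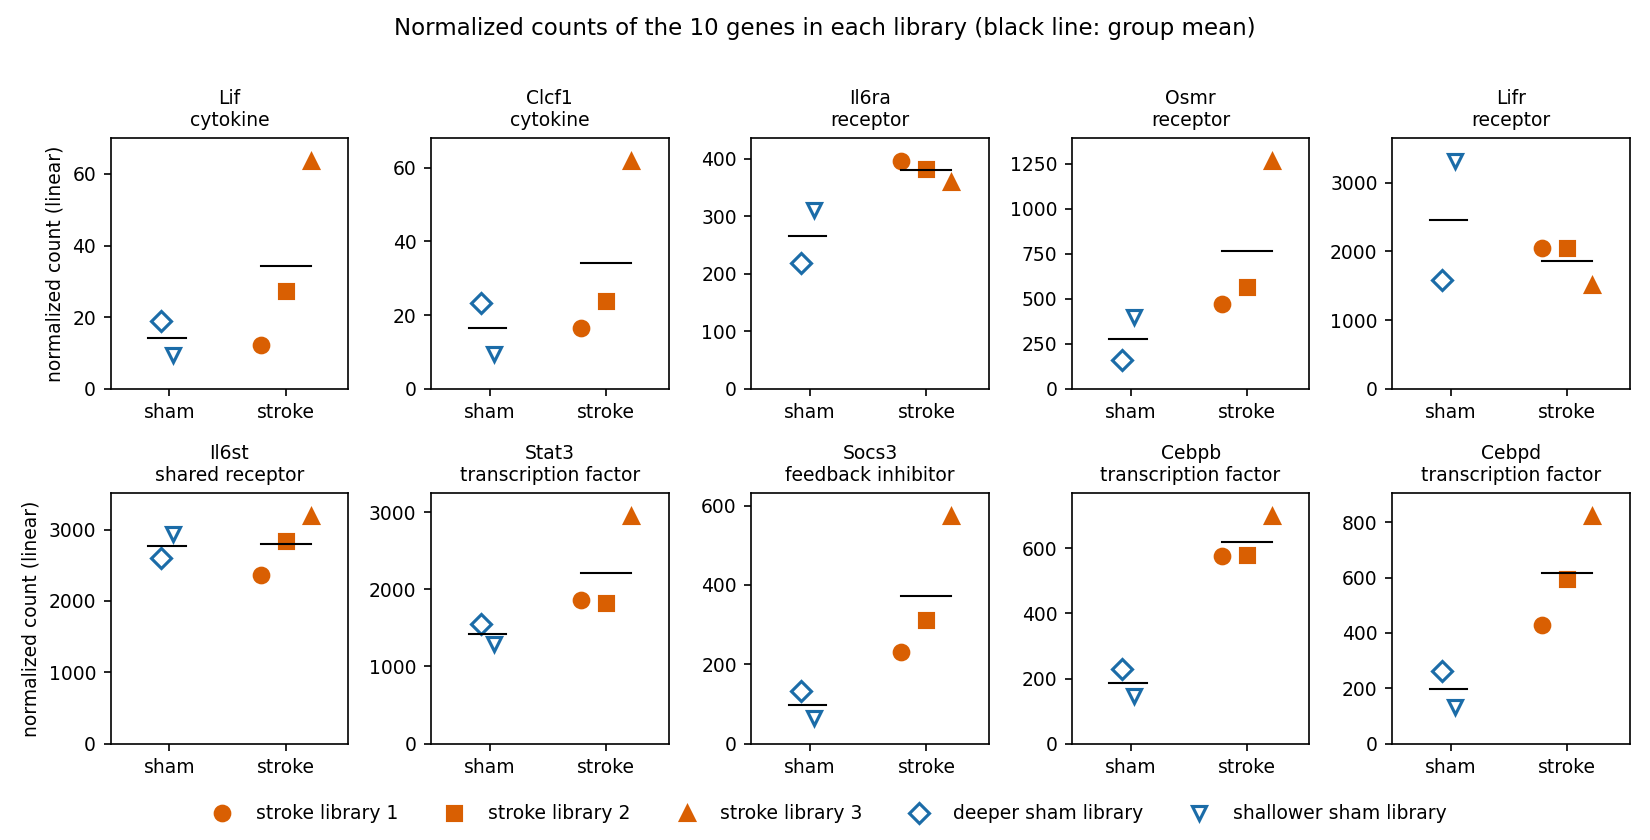
Normalized counts (linear axis from 0) of the 10 genes in each library, with sham libraries as open blue symbols, stroke libraries as filled orange symbols and the group mean as a black line. In Il6ra, Osmr, Stat3, Socs3, Cebpb and Cebpd all 3 stroke libraries sit above both sham libraries, and in Lif, Clcf1, Il6st and Lifr the groups overlap.

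Cebpb, which encodes C/EBP beta, had the smallest p-value of the 10 genes. Its normalized counts were 576, 579 and 700 after stroke, against 230 (deeper) and 146 (shallower) after sham. The groups were well apart, with the lowest stroke library 2.51-fold above the highest sham library. The stroke libraries lay close together, with a mean of 618 ± 70.6 (SD, n = 3). In the authors' deposited table the log2 fold change was 1.71 (SE 0.29, adjusted p = 6e-06, Wald test across all genes), and its p-value ranked 18 among 31651 genes. That is a 3.28-fold rise, with a 95% Wald interval of 2.20 to 4.90.

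Cebpd encodes C/EBP delta, the other acute phase C/EBP factor. Stroke libraries held 429, 595 and 823 normalized counts of it, against 261 and 131 after sham. The groups did not overlap, but the highest stroke library was 1.92-fold above the lowest and the deeper sham library was 2.00-fold above the shallower. The log2 fold change in the authors' deposited table was 1.65 (SE 0.40, adjusted p = 0.00756, Wald test across all genes), or 3.13-fold with an interval of 1.81 to 5.41.

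Socs3 showed the largest fold change of the 10 genes. Stroke library 3 held 574 normalized counts, stroke library 2 held 311 and stroke library 1 held 231, whereas the deeper sham library had 132 and the shallower 64.0. Every stroke library was above both sham libraries, although the stroke libraries spread 2.49-fold among themselves and the sham libraries 2.07-fold. The authors' deposited table gave 1.92 as its log2 fold change (SE 0.48, adjusted p = 0.0113, Wald test across all genes), a rise of 3.77-fold with an interval of 1.96 to 7.28.

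The calls of Socs3 and Cebpd were lost when stroke library 3 or the shallower sham library was left out, and that of Cebpb held when any 1 library was left out of the test closest to the authors' own. A negative binomial Wald test on the recovered reads, with the authors' dispersion kept, called all 3 with all libraries in. That dispersion came from all 5 libraries, so a library left out still had a part in it. Without stroke library 3 the adjusted p was 0.172 for Socs3 and 0.0930 for Cebpd, with log2 fold changes of 1.46 and 1.38. Without the shallower sham library the log2 fold changes were 1.49 for Socs3 and 1.24 for Cebpd, and the adjusted p was 0.552 and 0.564. That fit had 67 calls over all genes, against 219 with all libraries in, and 115 without stroke library 3. In the same 5 fits Cebpb had log2 fold changes from 1.43 to 2.08 and adjusted p at most 0.0261. Tested against a fold of 1.5 in place of no change, 0 of the 10 genes passed, with an adjusted p of 0.0646 for Cebpb. A limma fit of log2 normalized counts on 11970 genes called none of the 10, and only 2 genes in all. At an unadjusted p under 0.05 that fit had 5 of the 10, and 916 genes in all.

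**Figure D2:**
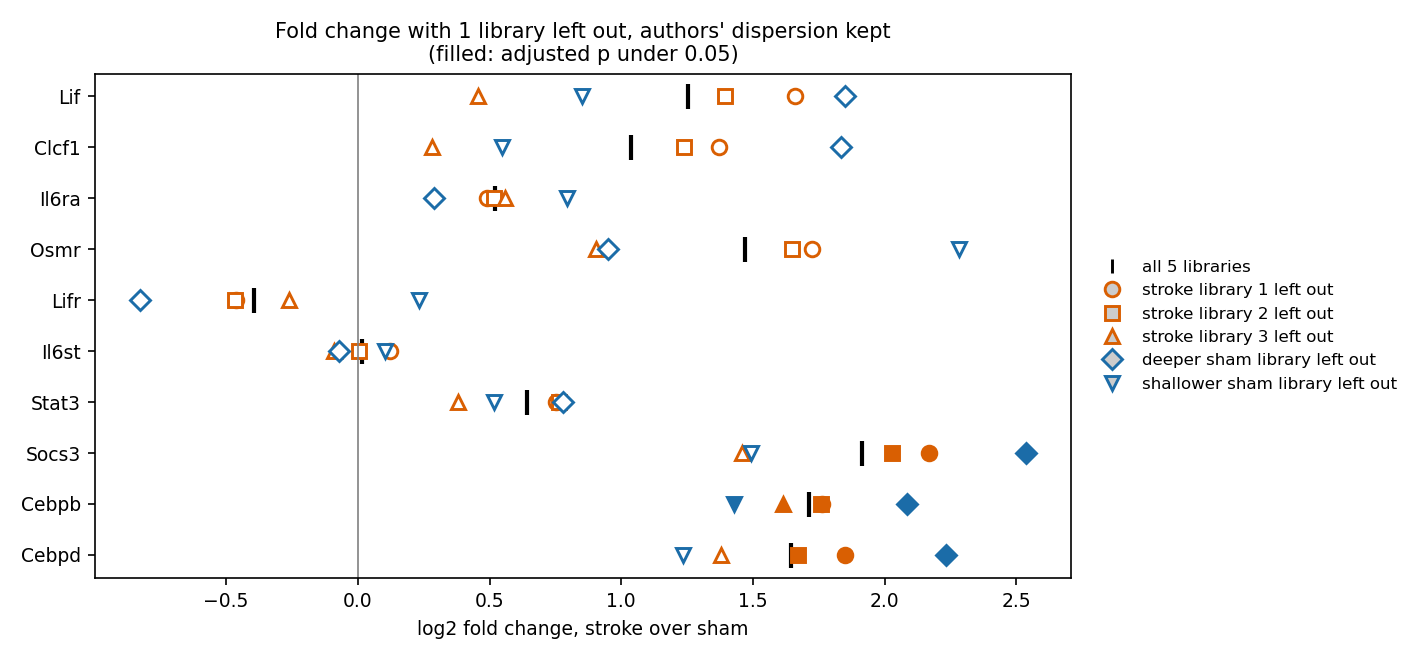
Log2 fold change of stroke over sham for each gene when 1 library is left out and the authors' dispersion is kept, with filled symbols at an adjusted p under 0.05 and a black bar for all 5 libraries. Cebpb stays filled throughout, and Socs3 and Cebpd are open when stroke library 3 or the shallower sham library is left out.

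Stat3, the transcription factor activated by gp130, was higher in all stroke libraries by a small margin. Stroke libraries held 1866, 1825 and 2950 normalized counts, against 1545 and 1289 after sham. The groups did not overlap, but stroke libraries 1 and 2 were close to the deeper sham library, and the lowest of them was 1.18-fold above it. The difference did not pass the Wald test across all genes in the authors' deposited table (0.64 on the log2 scale, SE 0.29, adjusted p = 0.360). Its 95% interval, from 0.07 to 1.21 on the log2 scale, reaches a rise of 2.32-fold. These are transcript levels, and phosphorylation of STAT3 was not measured.

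Among the receptor chains none passed the test, and their fold changes differed in sign. For Osmr, the oncostatin M receptor, stroke libraries held 474, 565 and 1266 normalized counts, against 158 and 398 after sham. Stroke library 3 was far above the rest, and the lowest stroke library was 1.19-fold above the shallower sham library. The log2 fold change in the authors' deposited table was 1.47 (SE 0.51, adjusted p = 0.136, Wald test across all genes).

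Il6ra, the ligand-binding receptor of interleukin-6, had the tightest stroke group, with 396, 383 and 360 normalized counts against 219 and 311 in the sham libraries. The lowest stroke library was 1.16-fold above the higher sham library, and stroke library 3 was the lowest of its group. The authors' deposited table gave a log2 fold change of 0.52 with SE 0.27 and an adjusted p of 0.4999.

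Il6st, the gp130 chain itself, had 2366, 2846 and 3192 normalized counts after stroke and 2608 and 2940 after sham, so the sham libraries lay inside the stroke range. The log2 fold change in the authors' deposited table was 0.01 (SE 0.22, adjusted p = 0.998), with a 95% interval from -0.42 to 0.45, or from 0.746-fold to 1.37-fold. Lifr, the leukemia inhibitory factor receptor, was the only one of the 10 with a negative fold change. Its normalized counts were 2047, 2049 and 1507 after stroke, against 1591 and 3318 after sham. The shallower sham library was 2.09-fold above the deeper one, and without it the fold change turned positive, to 0.23 on the log2 scale. With all libraries the authors' deposited table put it at -0.39 (SE 0.34, adjusted p = 0.831).

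Osmr and Lifr form alternative partners of gp130 and are neighbours on chromosome 15, 215644 bases apart. Per kilobase of exon, Osmr stood at 0.206, 0.245 and 0.747 of the Lifr level after stroke and at 0.0882 and 0.107 of it after sham. This ratio was therefore higher in each stroke library than in either sham library, while both chains differed between the sham libraries by more than 2-fold in the same direction. The ratio was chosen after the values were seen and was not tested.

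The cytokines Lif and Clcf1 were measured from few reads. Lif, which signals through Lifr and gp130, had 12.1, 27.4 and 63.6 normalized counts after stroke (14, 31 and 71 reads) and 19.1 and 9.54 after sham (18 and 7 reads). Clcf1, a ligand of the ciliary neurotrophic factor receptor complex, had 16.4, 23.9 and 61.8 after stroke and 23.3 and 9.54 after sham. In both genes stroke library 3 was the highest and stroke library 1 lay below the deeper sham library. The log2 fold changes in the authors' deposited table were 1.25 (SE 0.88, adjusted p = 0.729) for Lif and 1.04 (SE 0.84, adjusted p = 0.797) for Clcf1. With standard errors of that size a 7.86-fold rise of Lif lies at the edge of the 95% interval, as does a level of 0.724-fold, so these libraries do not settle whether Lif differed. The reads are few, and the libraries of a group also spread widely, with a dispersion of 0.384 for Lif and 0.353 for Clcf1.

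**Figure D3:**
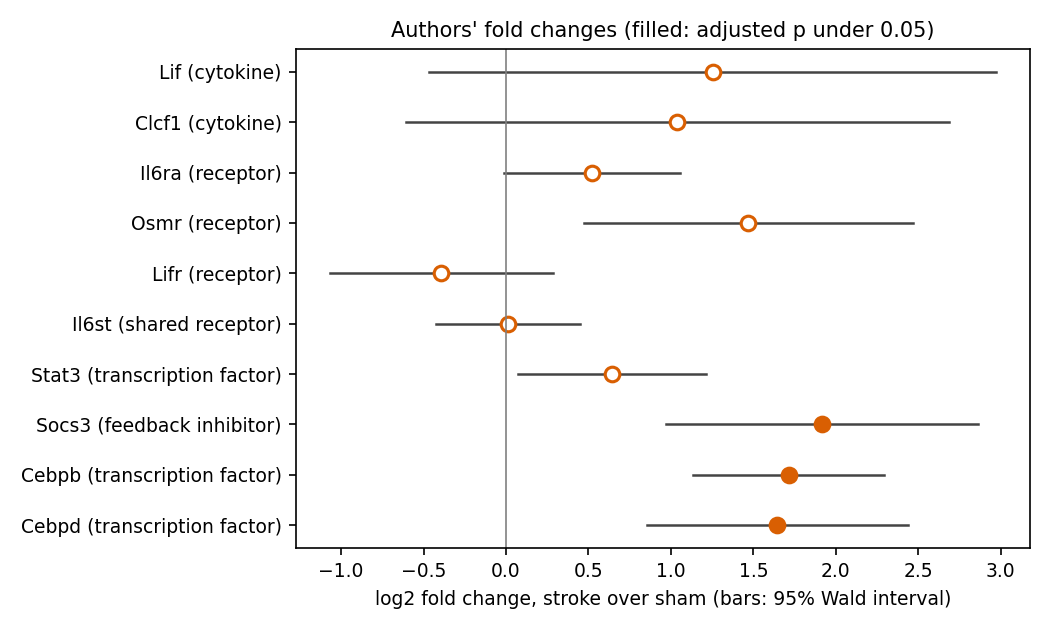
The 10 genes by role, each with its stroke over sham log2 fold change as the authors' deposited table gives it, with 95% Wald intervals as bars and filled points at an adjusted p under 0.05. The intervals of Socs3, Cebpb, Cebpd, Osmr and Stat3 lie above 0, and those of Lif and Clcf1 are the widest.

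Stroke library 3 was the highest stroke library in 8 of the 10 genes, all except Il6ra and Lifr, in which it was the lowest. Over the recovered tested genes it was the highest in 43.6% and the lowest in 31.2%. The shallower sham library was below the deeper one in 6 of the 10 genes, against 52.4% of the recovered tested genes.

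Levels can be compared between genes only per length, and were taken as normalized counts per kilobase of merged exons in GENCODE M21. By the mean over the 5 libraries the order was Cebpb (297 per kilobase), Il6st (251), Stat3 (199), Lifr (195), Cebpd (120), Socs3 (90.8), Osmr (47.2), Il6ra (38.6), Clcf1 (7.09) and Lif (6.06). The ranges over libraries of neighbours in this order overlapped, apart from Il6ra and Clcf1: the lowest Il6ra library had 25.4 per kilobase and the highest Clcf1 library 16.2. Cebpb led the 10 genes in every stroke library, with 383, 385 and 465 per kilobase. In the sham libraries it had 153 and 96.9 per kilobase, below Il6st, Stat3 and, in the shallower library, Lifr. Socs3 stood at 0.408, 0.562 and 0.641 of the Stat3 level per kilobase after stroke and at 0.282 and 0.164 of it after sham. Several such ratios were read and none was tested. Those of Lifr to Il6st, Clcf1 to Lif and Cebpb to Cebpd overlapped between the groups, and those of Osmr and Il6ra to Il6st did not.

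**Figure D4:**
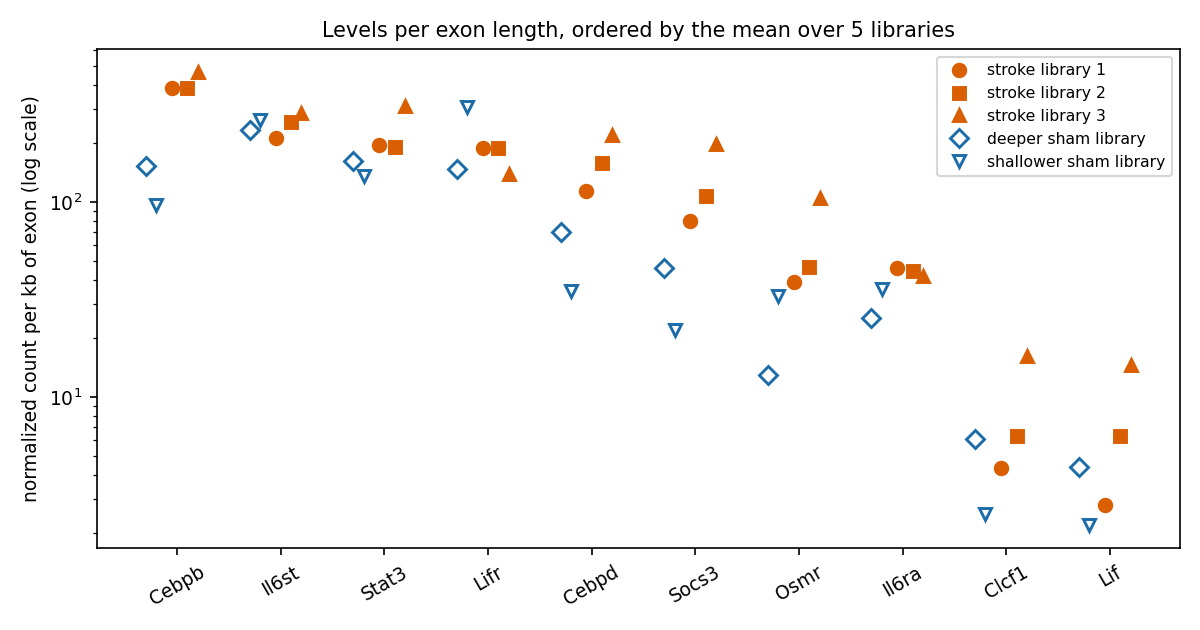
Normalized counts per kilobase of exon (log axis) of the 10 genes in each library, ordered by the mean over the 5 libraries, with stroke libraries filled orange and sham libraries open blue. Cebpb, Stat3, Cebpd, Socs3, Osmr and Il6ra separate by group, and the 2 cytokines lie below all other genes in the same library.

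In the genome (GRCm38, GENCODE M21) the genes that rose are compact. Cebpb covers 167688915 to 167690418 on the plus strand of chromosome 2, Cebpd 15887286 to 15891031 on the plus strand of chromosome 16, and Socs3 117966079 to 117970047 on the minus strand of chromosome 11. Stat3 lies on the same chromosome, from 100885098 to 100939540 on the minus strand. Cebpb, Cebpd, Stat3 and Il6ra each overlap an annotated gene on the opposite strand, namely Tmem189, Spidr, Stat5a and Gm42809. The kit was stranded, but the strand setting of the counting was not stated, so reads in those overlaps may not be told apart. Clcf1 overlaps a miRNA gene on the opposite strand, Gm26115, and a protein coding gene on its own strand, AC109138.7, whose shared reads no strand setting could tell apart. In the authors' deposited table the overlapped partner Tmem189 was at -0.07 on the log2 scale (adjusted p = 0.978) and Spidr at -0.41 (adjusted p = 0.910).

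Promoter sequence was read for the genes of the pathway because STAT3 and the C/EBP factors bind DNA themselves. RefSeq windows of 300 bases (GRCm38.p6, 250 before to 50 after the start) were present for 8 of the 10 genes, and were not used for Cebpd and Clcf1. They were searched on both strands for TTCNNNGAA, the letters of a STAT site, and TTNNGNAA, the letters of a C/EBP site. The STAT letters occurred in 1 of the 8 genes, Socs3, beside 8.30% of all 32851 windows and 9.55% of all genes with a window. The C/EBP letters occurred in 2 of the 8, Il6ra and Stat3, beside 40.7% of all windows and 44.1% of all genes with a window. Il6ra and Stat3 had 2 such matches each. The following stretches of 30 bases show in capitals the Socs3 match and, for Stat3 and Il6ra, the match farther from the start, 5′ to 3′ along the gene's strand. They are shown because they hold the letters that the family's own factors read.
Socs3, STAT letters: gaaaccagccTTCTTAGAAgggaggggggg
Stat3, C/EBP letters: cccccgggcttTTTTGTAAgctaggcctct
Il6ra, C/EBP letters: tcctactgggcTTTCGTAAccgcgagccgg
The Socs3 stretch is chr11:117969501-117969530, the Stat3 stretch chr11:100939728-100939757 and the Il6ra stretch chr3:89913294-89913323, all on the minus strand. In GENCODE M21 the Socs3 stretch lies within the annotated Socs3 gene, outside its exons. The Il6ra stretch overlaps an exon of Gm42809, and the Stat3 stretch overlaps no annotated gene. The matches begin 154, 206 and 116 bases before the respective RefSeq start, and the matches not shown begin 6 bases (Stat3) and 70 bases (Il6ra) before it. A match of letters is a description and no measurement of binding, and the share of genes with C/EBP letters was below that of all genes.

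The rest of the pathway was described from lists of 83 genes, of which 76 were tested. Of the 66 that are not among the 10, 6 rose and none fell in the authors' deposited table, 48 had a positive fold change, and the median log2 fold change was 0.26. Over all tested genes 0.775% rose. The lists were written with earlier results of these data known, so shares within them are no independent test. All 6 were in the list of known STAT3 and C/EBP target genes. The upstream parts of the pathway held no calls: 0 of 8 tested ligands, 0 of 6 receptors, 0 of 4 JAK kinases and 0 of 7 STAT factors passed the authors' Wald test. At an unadjusted p under 0.05, 2 ligands (Il6 and Osm), 1 receptor (Osmr), 0 JAK kinases and 1 STAT factor (Stat3) were higher, and none was lower. Over all tested genes 4.84% were higher at that threshold, and Osmr and Stat3 are among the 10 genes.

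Il6, the founding cytokine, had 1.73, 15.03 and 53.7 normalized counts after stroke and 3.18 and 1.36 after sham. Stroke library 1 lay within the sham range, and stroke library 3 held most of the reads. Its log2 fold change in the authors' deposited table was 3.35 (SE 1.45, adjusted p = 0.319). Osm, the ligand of the Osmr chain and a neighbour of Lif at 16530 bases, had 7.78, 28.3 and 17.9 after stroke and 4.23 and 0 after sham. Of 8 tested ligands it was the only 1 with all stroke libraries above both sham libraries, against 11.7% of the recovered tested genes. That count therefore does not set the ligands apart. The authors' deposited table gave Osm a log2 value of 3.01 (SE 1.30, adjusted p = 0.319). Il11 followed the pattern of Il6, with 1.73, 22.1 and 51.1 against 10.6 and 8.18. Of the receptors outside the 10, the authors' deposited table gave Cntfr 0.18 (adjusted p = 0.961) and Il11ra1 0.11 (adjusted p = 0.971) on the log2 scale. Of the kinases, Jak1 had a log2 fold change of 0.27 (adjusted p = 0.814) and Jak2 one of 0.26 (adjusted p = 0.824) in that table.

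Socs3 was the only 1 of 15 tested inhibitors of JAK-STAT signalling to pass. Ptpn11 and Socs7, the most abundant by mean count, had log2 fold changes of 0.10 and 0.24 in the authors' deposited table, with adjusted p-values of 0.956 and 0.793. The list's median log2 fold change was 0.10. Of the 5 tested C/EBP factors, Cebpb and Cebpd passed, and 4 of the 5 had every stroke library above both sham libraries, against 11.7% of the recovered tested genes. Cebpa, known for its role in myeloid and adipose cells, had a log2 fold change of 0.95 (adjusted p = 0.287), and Ddit3, the C/EBP factor of the stress response to unfolded protein, had 0.89 (adjusted p = 0.222), both in the authors' deposited table. Cebpg did not follow, at -0.14 (adjusted p = 0.972).

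Of 31 tested target genes, 6 rose, against 0.775% of tested genes, and 0 fell in the authors' deposited table, 27 had a positive fold change, and the median log2 fold change was 0.86. Every stroke library lay above both sham libraries in 16 of the 30 with recovered reads, against 11.7% of the recovered tested genes. The target list was written with earlier results of these data known, so these shares are a description and no independent test. With the adjustment over all 31651 genes with a p-value, calls in all pathway lists went from 9 to 6, and all 3 of the 10 genes were still called. Ccl2, a chemokine for monocytes, had 31.1, 82.2 and 173 normalized counts after stroke against 4.23 and 0 after sham (log2 fold change 5.39, SE 1.07, adjusted p = 0.000244, authors' deposited table). Icam1, an adhesion molecule for leukocytes, had 116, 173 and 355 against 66.7 and 51.8, and Bcl3, a nuclear IkB protein, had 48.4, 69.8 and 150 against 21.2 and 17.7. In these 3 genes stroke library 3 was the highest, as in Socs3.

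The other called targets had a different order among the stroke libraries. Fos, an immediate early gene, had 1360, 1731 and 537 normalized counts after stroke against 321 and 140, with stroke library 3 the lowest. Junb, its partner in AP-1, had 2945, 2405 and 2026 against 1117 and 488, and Ptgs2, which encodes cyclooxygenase-2, had 1184, 851 and 1045 against 295 and 586. Their log2 fold changes in the authors' deposited table were 2.39 (adjusted p = 0.000903), 1.61 (adjusted p = 0.00299) and 1.22 (adjusted p = 0.0297). Many of these targets are also induced by other signals, including NF-kB and neuronal activity, and the list does not tell these apart. For Gfap and Hif1a, the most abundant uncalled targets, the authors' deposited table gave log2 fold changes of 0.18 (SE 0.88, adjusted p = 0.989) and 0.04 (SE 0.25, adjusted p = 0.990).

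**Figure D5:**
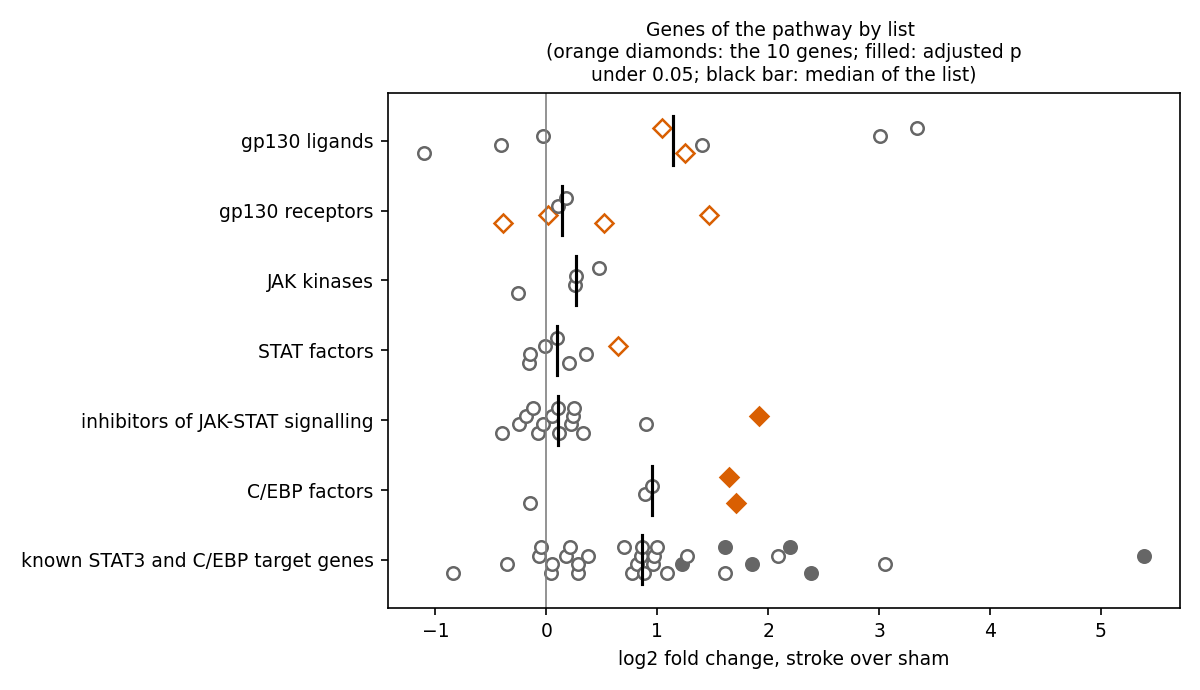
Tested genes of 7 pathway lists, placed by stroke over sham log2 fold change as the authors' deposited table gives it, with the 10 genes as orange diamonds, other genes as grey circles, filled symbols at an adjusted p under 0.05 and a black bar at each list's median. Filled symbols occur only in the inhibitor, C/EBP and target lists, at positive fold changes.

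The profile of Socs3 over the 5 libraries was compared with that of 7349 protein coding genes with recovered reads and a mean of at least 50. Recovery covered means under 1000, and up to 5000 for listed genes, so the ranks leave out most of the more abundant genes. The nearest was Cebpd, with a root mean square difference of 0.180 on the centred log2 scale. Tlr2, a receptor of innate immunity, followed at 0.249 and Icam1 at 0.253. Cebpb ranked 7 at 0.357, Stat3 ranked 159, Osmr 310, Il6ra 1411, Il6st 3043 and Lifr 7020. The measure covers 5 libraries from 1 comparison, so genes with a large difference between the groups are near each other by construction.

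Markers of cell types were read in the same libraries. The 8 microglia markers summed to 6103, 7005 and 5733 normalized counts after stroke and to 5699 and 3440 after sham, and 0 of 8 passed the authors' Wald test (2 at an unadjusted p under 0.05). The shallower sham library, which was also the lowest for Socs3, Cebpb and Cebpd, was the lowest here. The same held for the summed astrocyte, oligodendrocyte, choroid plexus and neutrophil markers with recovered reads. It did not hold for the endothelial, mural, monocyte, lymphocyte and red blood cell sums. The 8 endothelial markers summed to 5254, 7030 and 6801 against 4121 and 6394, and 0 of 8 passed (2 unadjusted). Over all 17420 tested genes 135 rose and 137 fell in the authors' deposited table, and 4.84% were higher at an unadjusted p under 0.05. Of 8 mural markers 3 rose, Acta2, Tagln and Myl9, with sums of 6267, 6772 and 5085 against 4087 and 5409. Of 5 red blood cell markers all 5 fell, with sums of 106, 230 and 67.2 against 2801 and 474. The 4 choroid plexus markers with recovered reads summed to 353, 347 and 345 against 1354 and 184, and 2 of 5 tested fell, Ttr and Folr1. None of 8 astrocyte, 8 neuron, 6 oligodendrocyte, 3 neutrophil and 2 monocyte markers tested passed the authors' Wald test, with 0, 1, 0, 0 and 0 at an unadjusted p under 0.05. The 8 neutrophil markers summed to 136, 215 and 174 normalized counts after stroke and to 195 and 109 after sham. Of the 3 tested, 2 had a positive fold change. Ly6g, another of the 8, was at 0 in all libraries except stroke library 2 (0.884). No lymphocyte marker was abundant enough to be tested. The part of these cell types in the values of the 10 genes was not tested.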

How the data were processed

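RNA of 2 sham and 3 stroke libraries was sequenced. Per the submitters' processing notes, the tools were FastQC, STAR 2.5.2b, featureCounts 1.5.1 and DESeq2 1.14.1 on GRCm38. The annotation release, the strand setting and how multiply aligned reads were handled were not stated. Per the file headers, the authors deposited 1 row per gene: a signal (the mean over libraries of counts divided by size factors), a log2 fold change, its standard error, a Wald score (statistic), a p-value and its adjusted p-value. No values per library were used from the table, since its columns hold comparisons. The authors' Wald test is the main test. A positive fold change means stroke higher, since genes with 1 read in 1 library had positive fold changes at 3 values of the mean and negative ones at 2.

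Reads per library were recovered with numba 0.67.0 and numpy 2.4.6 (Python 3.11.15). A set of 5 whole numbers was accepted where it alone gave the authors' mean and standard error and, to within 6e-10, their fold change, which held for 12194 of 12230 genes tried. For 19 more genes, Il6st and Lifr among them, several sets gave these values and the 1 that met the dispersion equation was taken, which made 12213 in all. All tested genes with a mean under 1000 were tried, and listed genes up to 5000. Recovered reads entered limma 3.58.1 (R 4.3.3) as log2(normalized count + 1) with a mean of at least 10, with trend and robust variance, and a negative binomial Wald test with the authors' dispersion, which was chosen after seeing the data. The recovery of reads and the limma fit were tested on simulated data, and the negative binomial Wald test was not. Simulated means for the recovery were below those of Stat3, Lifr and Il6st. The choice among several sets was not tested in this way. Alternatives changed the genes adjusted over, the filter, the null hypothesis, the pseudocount, the scaling and the libraries. Promoter sequences are from RefSeq.

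The members and gene lists were chosen with earlier results of these data known. The text names all 10 genes, each called gene of the pathway lists, the 2 most abundant uncalled genes of a list, the genes of short lists (at most 8 measured), and the 3 genes nearest to Socs3. Beyond that rule, called cell type markers, Ly6g and the overlapping genes were named after their values were seen.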

Additional observations from a re-analysis of the deposited data

How the results depend on the processing

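Of the 10 genes, 3 were called higher with the adjustment over all 31651 genes with a p-value, with a mean of at least 5 reads per 1e6, and with the authors' dispersion on recovered reads. Pathway genes called higher numbered 9 in the authors' test and 6, 7 and 9 under these settings. Against a fold of 1.5 in place of no change, 0 were called (adjusted p = 0.0646 for Cebpb by the Wald test), and of the pathway genes 1. In limma on recovered reads 0 of the 10 and 0 pathway genes were called, also with a pseudocount of 0.5 or 5, without the filter and scaled by recovered reads. The fold changes there stayed at 1.85 to 1.92 for Socs3, 1.72 to 1.77 for Cebpb and 1.66 to 1.71 for Cebpd. Only 2 of 11970 genes were called by limma in all. The cause was not tested.

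With 1 library left out in limma, 0 to 3 of the 10 were called higher and 0 to 1 lower (Lifr, without the deeper sham library, -0.84, adjusted p = 0.0334), and 0 to 17 pathway genes were called higher and 0 to 3 lower. The upper counts came without the deeper sham library, where 2066 of 11970 genes passed. With the authors' dispersion, an alternative chosen after seeing the data, 1 to 3 of the 10 and 3 to 8 pathway genes were called, with 4 pathway genes without stroke library 3, 5 without the deeper and 3 without the shallower sham library. In these fits the dispersion was still that of all 5 libraries, the left-out library included. In limma a sham group of 1 library is assumed to vary like the stroke group. Il6st changed sign at values near 0: in limma to -0.0109 without stroke library 2, -0.0937 without stroke library 3 and -0.0806 without the deeper sham library, and with the authors' dispersion to -0.0900 without stroke library 3 and -0.0699 without the deeper sham library, where its range was -0.0900 to 0.122. Without the shallower sham library, Lifr turned to 0.217 in limma and 0.231 with the authors' dispersion, where its range was -0.829 to 0.231. The other 8 genes kept their direction in all settings that gave them a value.

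No paired analysis was possible because the table holds no values per library and the recovered libraries cannot be tied to the replicate numbers. The sham group has 2 libraries, which differed by 2.00-fold to 2.52-fold in Socs3, Cebpd, Osmr, Lifr, Lif and Clcf1. Reads of Lif and Clcf1 were as few as 7 in a library, and the spread between libraries was wide for both (dispersion 0.384 and 0.353).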
